A study of Arabidopsis thaliana with 24 samples.

Results

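The genes described here were more strongly expressed in water-treated rosettes of the Arabidopsis thaliana mutant mil4 than in wild-type Col rosettes, and were back near or below the wild-type level when the sid2 mutation was added. They are 43 of 22746 probe sets of the Affymetrix ATH1 array, each a set of short probes for 1 transcript or a few. A probe set was taken when its mean over the 4 mil4 water arrays was at least 7 on the scale log2(intensity + 16) and at least 0.7 above each of the means of Col, sid2 and mil4 sid2 with water, and when its sid2 mean exceeded its Col mean by less than 0.5. The members were thus chosen by their measured values on the 16 water arrays, and the differences among the 4 water groups are given as a description, with no test. Of the 43 probe sets, 13 carry 1 gene name in the annotation supplied with the arrays, 1 carries a pair of names, and 29 are unnamed here and are given by their probe-set ID. No sequence of a member or its promoter was used here.

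Whole rosettes of 4-week-old plants, grown at 22 °C with 14 h of light, were collected 2 days after a spray with water or with 300 µM BTH. BTH, or benzothiadiazole, is a chemical defence activator used as a functional stand-in for the hormone salicylic acid. The 6 groups of 4 arrays, given as biological replicates by the labels, were water-treated Col-0, mil4, sid2 and the double mutant mil4 sid2, and BTH-treated Col-0 and mil4. The sources used here do not give the alleles of mil4 and sid2 or the number of plants in a sample, so p-values measure the spread between these samples. No sid2 plants treated with BTH were analysed here.

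Salicylic acid accumulates in leaves after attack by biotrophic pathogens and switches on a broad set of defence genes through the receptor protein NPR1 and TGA transcription factors. SID2 is the gene ICS1, which encodes isochorismate synthase, a plastid enzyme that supplies most pathogen-induced salicylic acid. Plants with sid2 therefore make little of the hormone, whereas BTH acts downstream of its synthesis and needs no SID2. Mutants that form lesions spontaneously often have raised salicylic acid and defence gene expression without a pathogen.

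The 4 arrays of sid2 and the 4 of mil4 sid2 were all hybridized on a day of their own, day 4, while the Col and mil4 arrays shared days 1 to 3. The sid2 genotype and the hybridization day therefore cannot be told apart in any comparison of sid2 or mil4 sid2 with Col or mil4, which includes the part of the rule that calls the rises SID2-dependent. The comparison of mil4 with Col is within days 1 to 3. Within those days the median difference of the members between mil4 and Col with water was 0.88, 1.18 and 1.19 on the log2 scale, values that the choice of members on these arrays pushes up. The ratio of 3′ to 5′ signal of GAPDH, a sign of RNA quality, was 0.699 to 0.966 in Col with water and 1.079 to 1.227 on the sid2 and mil4 sid2 arrays, without overlap. In mil4 with water it was 0.651 to 0.98 on 3 arrays and 1.648 on replicate 4, which was the highest mil4 water array for 24 of the 43 members. Without that array the rule chose 32 probe sets, 28 of them members. The part of RNA quality in the differences between the water groups was not tested. The leaf was checked with 3 genes of photosynthesis that had a named probe set, of 20 listed (RCA, LHCB4.1 and SBPASE). Their summed intensity was 48038.5 to 87396.8 on all arrays.

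Col, sid2 and mil4 sid2 with water shared a low level of the members, and the other 3 groups lay above it in steps. The median over the 43 probe sets was 7.64 ± 0.33 (SD, n = 4 arrays) in Col with water, 7.22 ± 0.11 in sid2 and 7.24 ± 0.26 in mil4 sid2. The median was 8.68 ± 0.48 in mil4 with water, 9.46 ± 0.30 in Col with BTH and 10.41 ± 0.41 in mil4 with BTH. The lowest mil4 water array, at 8.19, lay above the highest Col water array, at 8.11, an order that the choice of members favours. Of the 6 group means, that of mil4 with BTH was the highest for 31 members, that of mil4 with water for 9 and that of Col with BTH for 3.

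**Figure D1:**
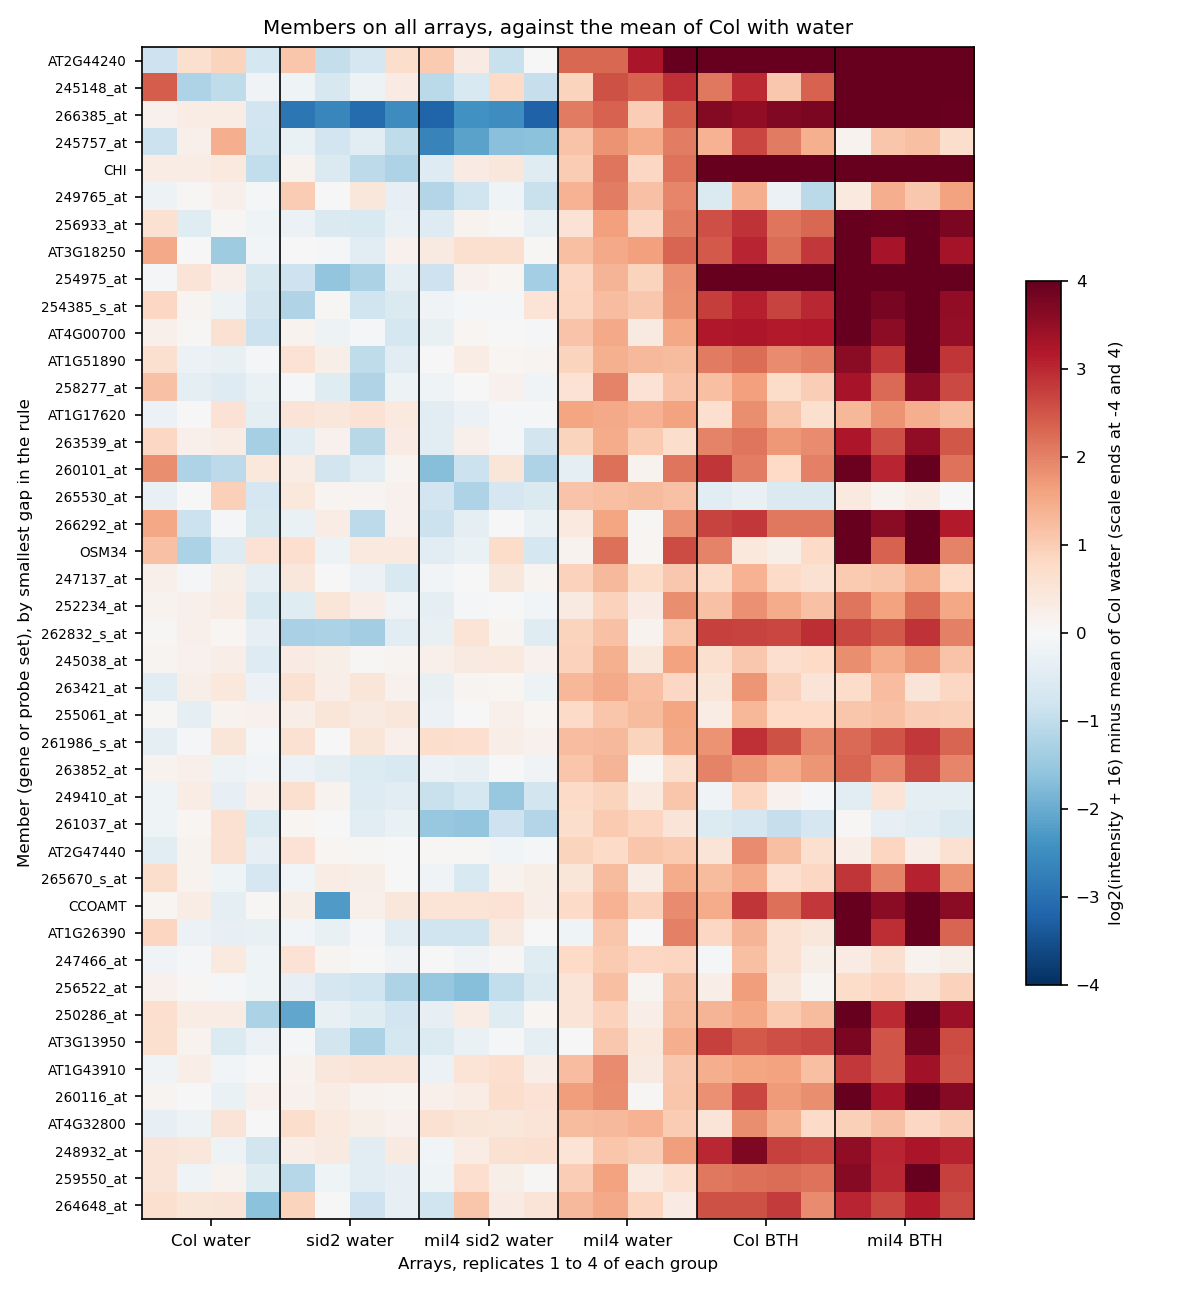
Each row is a member, ordered by the smallest gap between mil4 water and the other water groups, and each column is an array. Colour gives log2(intensity + 16) minus the member's mean over the 4 Col water arrays. The sid2 and mil4 sid2 columns stay near or below the Col water level, the mil4 water columns are above it by choice, and the BTH columns are higher still for most rows.

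**Figure D2:**
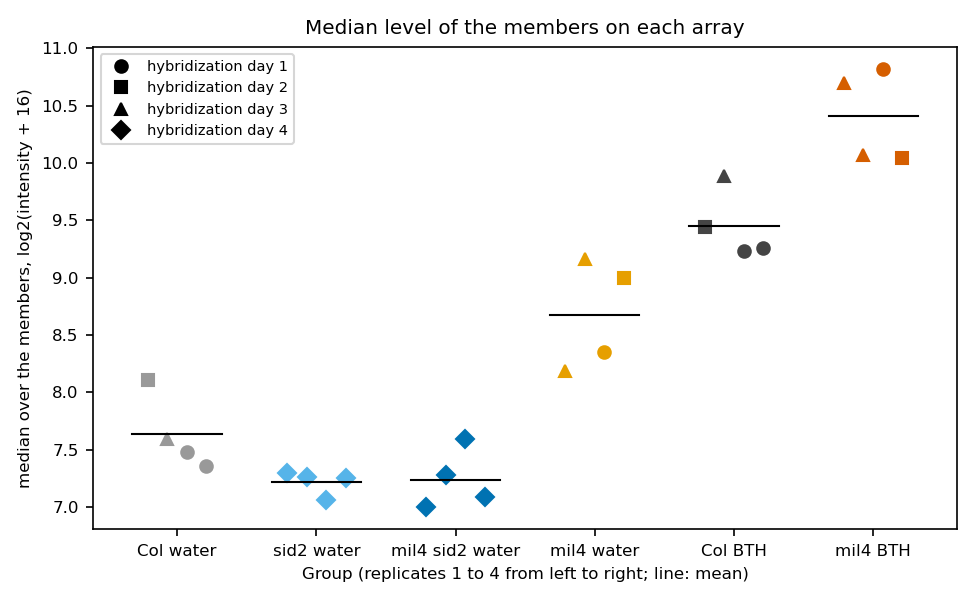
Points give the median over the 43 members on each array in log2(intensity + 16), with the marker showing the hybridization day and the line the mean of 4 arrays. The 4 mil4 BTH arrays, at 10.04 to 10.82, lie above the 4 Col BTH arrays, at 9.23 to 9.89, and all sid2 and mil4 sid2 arrays belong to day 4.

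AT2G44240, a gene of the neprosin family of plant proteins, stood farthest apart among the members. With water its intensity was 170.7, 171.0, 350.8 and 636.6 on the 4 mil4 arrays, against 5.3, 42.5, 54.0 and 7.4 in Col. In sid2 it was 65.2, 3.7, 7.8 and 45.5 and in mil4 sid2 61.5, 31.1, 4.3 and 21.9. Every mil4 array thus lay above all 12 other water arrays, where the gene was dim. The smallest gap between the group means was 2.88 on the log2 scale, a size that depends on the pseudocount at such low intensities.

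CHI (AT2G43570), a chitinase gene, had the next largest gap of the named members. Its water intensities were 783.7, 1717.6, 690.3 and 1761.7 in mil4 and 472.5, 470.4, 503.4 and 182.1 in Col. They were 416.5, 251.7, 177.3 and 152.4 in sid2 and 261.1, 483.7, 523.7 and 265.8 in mil4 sid2. Again no mil4 array overlapped any other water array. The smallest gap was 1.54.

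The unnamed probe set 266385_at was the member with the lowest level in both sid2 genotypes relative to Col. It measured 1424.7, 1558.4, 1565.5 and 738.6 in Col with water, 157.1, 193.6, 135.0 and 206.6 in sid2, and 123.1, 223.7, 213.2 and 119.9 in mil4 sid2. In mil4 with water it reached 5425.1, 6521.3, 2530.8 and 6871.7. The sid2 mean was lower than the Col mean by a log2 difference of -2.78, while the mil4 sid2 mean minus the sid2 mean was -0.06. With BTH it was at 16388.6, 14810.8, 16641.1 and 17314.0 in Col and 23088.3, 20913.0, 24189.5 and 19694.5 in mil4, without overlap and short of the threshold (log2 difference 0.43, SE 0.28, adjusted p = 0.541).

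Of the 43 members, 3 had means at least 0.5 below the Col mean in both sid2 and mil4 sid2, and for 27 both means were within 0.5 of it. Counted singly, the sid2 mean lay at least 0.5 below that of Col for 10 members and the mil4 sid2 mean for 8. The sid2 mean minus the Col mean ran from -2.78 to 0.48 with a median of -0.15, where the rule set the upper bound, and that of mil4 sid2 minus Col ran from -2.84 to 0.52 with a median of -0.10. The 4 sid2 arrays lay below the 4 Col arrays without overlap for 4 members (8.15% of all probe sets) and above them for 1 (9.16% of all). The mil4 sid2 arrays lay below those of Col for 5 (8.66% of all) and above them for 1 (10.8% of all). These arrays chose the members, and nothing is read from the counts.

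mil4 sid2 and sid2 were hybridized on the same day, and the rule set no bound on their difference. Its median over the members was 0.07, from -1.41 to 1.07, and the median over all probe sets was -0.01. In 7 members the 4 mil4 sid2 arrays lay below the 4 sid2 arrays without overlap (3.77% of all probe sets), and in 0 they lay above (4.0% of all). The most negative was 245757_at, unnamed here, at 84.4, 128.9, 182.8 and 187.2 in mil4 sid2 against 510.4, 360.0, 458.6 and 296.8 in sid2. Both groups served in the rule, so no test is given.

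Of the 43 members, 18 had all 4 mil4 water arrays above all 12 other water arrays, a pattern of 0.435% of all probe sets that the rule favours. Against single groups the mil4 arrays lay higher without overlap for 22 members against Col (5.19% of all probe sets), 33 against mil4 sid2 (5.58% of all) and 33 against sid2 (3.53% of all). Nearest inside the threshold were the unnamed probe sets 264648_at, 259550_at and 248932_at, with smallest gaps of 0.715, 0.716 and 0.721. Just outside were AT3G19680 at 0.693, the unnamed 264339_at at 0.688 and AT4G15680 at 0.67. Members near the threshold depend on single arrays. With each of the 16 water arrays left out in turn, 15 of the 43 were chosen every time, among them AT2G44240, CHI, AT3G18250, AT4G00700, AT1G51890 and AT2G47440.

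The BTH arrays took no part in the choice, and mil4 against Col after BTH is therefore the comparison that can be tested. They are not wholly apart from the water arrays: same-numbered water and BTH arrays shared a run, and their deviations from the group means correlated at 0.22, 0.31, 0.16 and 0.16 in Col and at 0.05, -0.07, 0.05 and -0.04 in mil4, over 11373 probe sets. The part of these shared deviations in the difference between mil4 and Col was not tested. After BTH the members were again mostly higher in mil4 than in Col. In limma, 15 of the 43 passed an adjusted p of 0.05 as higher in mil4, where 1.46% of all probe sets did, and 0 passed as lower, where 1.82% did. At an unadjusted p of 0.05, 23 were higher (7.5% of all probe sets) and 2 lower (6.66% of all). The mil4 mean was above the Col mean for 36 members (83.7%), against 54.5% of all probe sets. The median difference was 0.69 on the log2 scale, from -1.09 to 3.28, against 0.03 over all probe sets. In 22 members the 4 mil4 BTH arrays lay above the 4 Col BTH arrays without overlap (4.95% of all probe sets), and in 1 below them (4.96% of all).

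The difference was also present in other probe sets that were higher in mil4 with water. Among 395 probe sets that likewise had a mil4 water mean of at least 7, at least 0.7 above the Col water mean, but did not meet the rest of the rule, the median difference after BTH was 0.33, 83.3% were above 0, and 60 (15.2%) passed as higher and 5 (1.27%) as lower. Of the 12589 probe sets with a mil4 water mean of at least 7, 1.91% passed as higher and 3.05% as lower. The share of the members, 34.9%, was set beside these without a test.

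The same-numbered water and BTH arrays of a genotype shared a hybridization run, and run 2 was the 1 run to hold BTH arrays of both genotypes. The median of the members was 1.07, 0.51 and 0.58 within days 1, 2 and 3, and 1.19 within run 2, which has 1 array of each genotype. Of the 43 members, 37, 35 and 29 were above 0 within days 1, 2 and 3, and 37 within run 2. With the run as a block, the genotypes met only in run 2, and the water arrays that chose the members entered the estimate. In that fit 1 of the 15 passed, the unnamed 250286_at (log2 fold change 3.26). The 3′ to 5′ ratio of GAPDH was 0.729 to 1.009 in mil4 with BTH and 0.792 to 1.122 in Col with BTH. The count of members that passed was 7 without Col BTH replicate 3, mil4 BTH replicate 1 or mil4 BTH replicate 3, and 8 without Col BTH replicate 4. Over all probe sets 442, 492, 431 and 469 passed in these fits, in the same order.

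**Figure D3:**
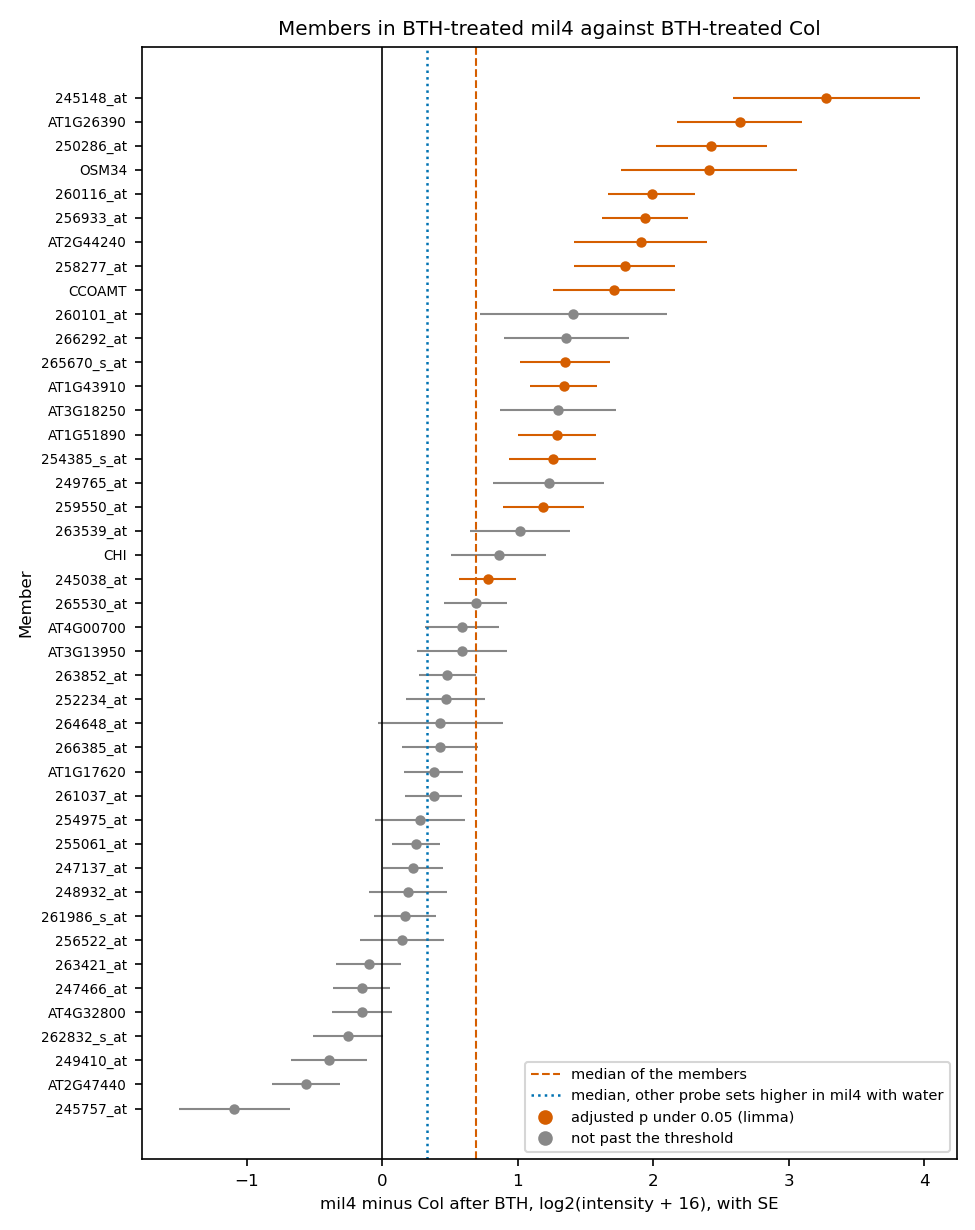
Points show, for each member, mil4 minus Col after BTH in log2(intensity + 16) from limma with its standard error. The 15 orange points passed an adjusted p of 0.05. The dashed line is the median of the members, 0.69, and the dotted line that of the 395 other probe sets higher in mil4 with water, 0.33.

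AT1G26390, which encodes a flavin-linked oxidase of the berberine bridge enzyme family, showed the largest difference of the 13 named members after BTH. Its intensities were 1471.1, 649.8, 1777.6 and 413.3 in mil4 with BTH and 134.3, 202.7, 115.1 and 99.6 in Col with BTH. Every mil4 array was above every Col array, a 6.25-fold difference (2.64 on the log2 scale with an SE of 0.46, limma adjusted p = 0.00215, 4 arrays in each group). With water the gene was at 59.4, 167.5, 70.9 and 332.0 in mil4 against 137.8, 57.0, 52.0 and 53.2 in Col, so that the groups overlapped, and replicates 2 and 4 were the high mil4 arrays. The call after BTH stood in each fit without 1 array and was lost with run as a block (adjusted p = 0.0884).

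OSM34 (AT4G11650) encodes osmotin 34, a thaumatin-like defence protein. It measured 1282.8, 380.8, 1805.6 and 289.0 in mil4 with BTH and 284.3, 87.3, 73.0 and 112.9 in Col with BTH. The arrays did not overlap, though mil4 replicate 4 and Col replicate 1 lay close together. The gene was 5.33-fold higher in mil4 (log2 difference 2.41, SE 0.65, adjusted p = 0.0433). Leaving out an array ended the call for Col BTH replicate 2 (adjusted p = 0.0912), 3 (0.134) or 4 (0.106) and for mil4 BTH replicate 1 (0.136) or 3 (0.172), and a pseudocount of 1 (0.0794), run as a block (0.338) and the 8 BTH arrays alone (0.127) ended it too. With water OSM34 was at 68.2, 334.8, 65.0 and 448.1 in mil4, again high on replicates 2 and 4. Col with water gave 158.2, 15.8, 38.0 and 99.1, so that the groups overlapped. In sid2 it was at 50.2 to 106.9 and in mil4 sid2 at 30.4 to 112.2, which the 2 lower mil4 arrays did not exceed. The gene was chosen in 12 of the 16 selections without 1 water array.

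AT1G26390 and OSM34 were the 2 members at least 1 log2 unit higher with BTH than with water in mil4 (2.71 and 2.00) but less than that in Col (0.81 and 0.84). The Col water arrays were chosen to be low and the mil4 water arrays to be high, so such differences lean up in Col and down in mil4 for every member. They are values here, not tests. In mil4, OSM34 was at 68.2 with water and 1282.8 with BTH on replicate 1, and at 65.0 and 1805.6 on replicate 3. On replicate 2 it was at 334.8 and 380.8, and on replicate 4 it was lower with BTH, at 448.1 and 289.0. AT1G26390 differed least on replicate 4, at 332.0 with water and 413.3 with BTH.

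AT1G51890, a receptor-like kinase gene with leucine-rich repeats, was high on replicates 1 and 3 of mil4 with BTH. It was at 823.2, 485.5, 1115.9 and 483.7 in mil4 with BTH, 274.7, 308.0, 239.6 and 260.4 in Col with BTH, and 113.1, 168.8, 153.4 and 151.0 in mil4 with water. Col with water gave 91.2, 42.0, 39.8 and 49.5, below every mil4 water array. After BTH the gene was 2.45-fold higher in mil4 (log2 difference 1.29, SE 0.29, adjusted p = 0.015), a call lost without Col BTH replicate 3 (0.0531), mil4 BTH replicate 1 (0.054) or mil4 BTH replicate 3 (0.0745), with run as a block (0.0738), in the 8 BTH arrays alone (0.0659) and with a pseudocount of 1 (0.0551).

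AT1G43910, a gene for an ATPase of the P-loop class, had the next smallest adjusted p of the named members after AT1G26390. It measured 640.4, 512.2, 931.3 and 530.9 in mil4 with BTH and 240.6, 259.3, 268.0 and 199.4 in Col with BTH. The Col arrays were tightly grouped and lay below all mil4 arrays, a 2.54-fold difference (log2 difference 1.34, SE 0.25, adjusted p = 0.00372). No fit without 1 array ended the call, and run as a block did (adjusted p = 0.149). In mil4 with water it was at 201.5, 326.8, 103.4 and 181.2, both above and below the range of Col with BTH.

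CCOAMT (AT1G67980), a methyltransferase gene of phenylpropanoid metabolism, was at 1665.1, 1027.0, 2254.7 and 1037.8 in mil4 with BTH and 222.9, 611.7, 377.8 and 598.6 in Col with BTH. It was 3.28-fold higher in mil4 (log2 difference 1.71, SE 0.45, adjusted p = 0.039). That call ended without Col BTH replicate 1 (0.15), 3 (0.102) or 4 (0.0524) and without mil4 BTH replicate 1 (0.102) or 3 (0.148). Blocks for day (0.0615), run (0.344) and fluidics module (0.0552), a pseudocount of 1 (0.293) and the 8 BTH arrays alone (0.0739) also ended it. With water the gene was at 129.0, 207.2, 144.6 and 303.3 in mil4 and at 49.7 to 87.9 in Col.

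AT2G44240 was at 2054.7, 1900.1, 1464.1 and 1380.1 in Col with BTH and in mil4 with BTH at 6791.4, 6157.2, 5826.0 and 6596.9. The groups were far apart and tight within, and the gene was 3.75-fold higher in mil4 (log2 difference 1.91, SE 0.49, adjusted p = 0.0342). The fit takes the spread from all 24 arrays, and the SD between arrays was 0.89 in Col with water and 0.10 in mil4 with BTH. In a fit of the 8 BTH arrays alone the adjusted p was 0.01. The call of the 24-array fit was lost without Col BTH replicate 1 (adjusted p = 0.0643), 3 (0.0951) or 4 (0.102) and without mil4 BTH replicate 1 (0.0838), 2 (0.0612), 3 (0.0783) or 4 (0.0695), with day (0.0537) or run (0.146) as a block, and with a pseudocount of 1 (0.293).

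CHI missed the threshold. It was at 13606.0, 11471.0, 14334.4 and 10783.5 in mil4 with BTH and 6678.7, 7676.6, 7016.1 and 6153.6 in Col with BTH. The groups did not overlap, and the difference was 1.82-fold (log2 difference 0.86, SE 0.35, adjusted p = 0.239), with an adjusted p of 0.0383 in the fit of the 8 BTH arrays alone.

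The remaining named members at least 1 log2 unit higher with BTH than with water in both genotypes were AT3G18250, AT4G00700 and AT3G13950. AT3G18250 was at 3112.2, 1242.1, 2917.0 and 1250.5 in mil4 with BTH and 677.4, 1032.0, 584.2 and 893.4 in Col with BTH (log2 difference 1.30, SE 0.43, adjusted p = 0.113). It passed with a pseudocount of 64 (adjusted p = 0.0255), among the probe sets above the median level (0.0411) and with array weights (0.0456). AT4G00700, which encodes a C2-domain membrane protein, was at 1688.3, 1212.3, 1739.0 and 1160.2 against 930.6, 962.1, 926.4 and 947.9 (0.59, SE 0.27, adjusted p = 0.314). For both genes no mil4 array reached down into the Col range. AT3G13950 overlapped, at 1301.1, 536.9, 1358.5 and 581.8 against 632.9, 512.7, 556.3 and 585.0 (0.59, SE 0.33, adjusted p = 0.466).

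**Figure D4:**
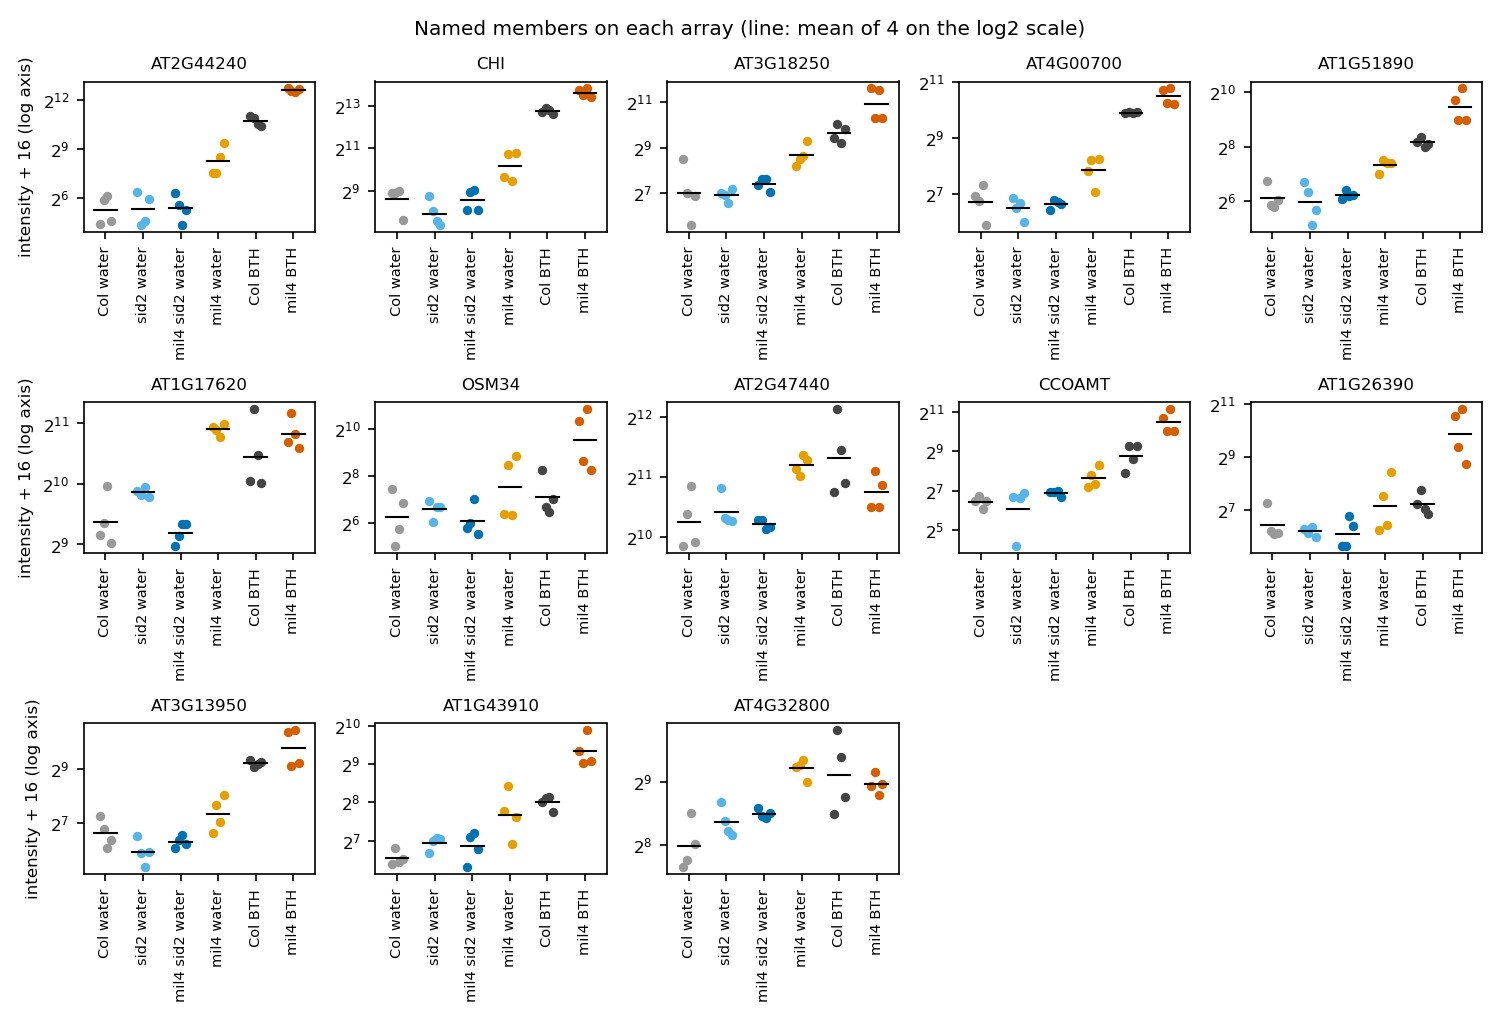
Each panel is a named member, each point an array, and the line the mean of 4 arrays on the log2 scale. The vertical axes are logarithmic, show intensity + 16 and differ between panels. AT1G17620, AT2G47440 and AT4G32800 are about as high in mil4 with water as in the BTH groups. The other panels have a higher mean in mil4 BTH than in mil4 water, though the OSM34 arrays of these groups overlap.

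AT1G17620, a gene of the late-embryogenesis-abundant glycoprotein family, AT2G47440, a gene for a protein with tetratricopeptide repeats, and AT4G32800, which encodes an AP2/ERF-type transcription factor, were no higher in mil4 with BTH than in mil4 with water. Their BTH minus water differences were -0.08, -0.45 and -0.26 in mil4 but 1.07, 1.06 and 1.14 in Col. The unnamed 245757_at, at -0.83 and 1.88, completes the 4 members at least 1 log2 unit higher with BTH in Col and not in mil4. None of these 4 passed in the comparison of mil4 with Col after BTH.

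AT1G17620 was at 1961.4, 1886.5, 1734.4 and 2022.9 in mil4 with water and at 1645.3, 2292.4, 1793.8 and 1538.7 in mil4 with BTH. Col with water gave 554.7, 640.3, 985.2 and 505.8 and Col with BTH 1045.3, 2391.6, 1411.6 and 1024.8. The mil4 groups overlapped each other and the Col BTH arrays (mil4 minus Col after BTH 0.38, SE 0.22, adjusted p = 0.477). In sid2 the gene was at 863.1 to 974.0 and in mil4 sid2 at 484.3 to 633.7, without overlap between these groups of the same day.

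AT2G47440 measured 2220.2, 2051.5, 2639.4 and 2487.9 in mil4 with water, against 1438.4, 2186.2, 1438.6 and 1858.3 with BTH. Col with BTH gave 1713.9, 4457.0, 2789.5 and 1898.3, its replicate 2 being the highest value of the gene on any array. AT4G32800 had the same high array, at 342.7, 889.7, 657.6 and 415.3 in Col with BTH, and was at 472.5, 552.6, 427.1 and 483.4 in mil4 with BTH. The mil4 minus Col differences after BTH were -0.56 (SE 0.25, adjusted p = 0.294) and -0.15 (SE 0.22, adjusted p = 0.838). Col BTH replicate 2 was the highest of its group for 31 of the 43 members. Without it AT4G32800 turned to 0.08.

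Among the unnamed members, 8 of 29 passed after BTH, and so did 265670_s_at, which carries both AT2G32210 and AT2G32190. Probe set 245148_at had the largest difference of all members, at 2758.3, 763.6, 5108.8 and 1215.1 in mil4 with BTH against 180.2, 338.1, 78.6 and 217.5 in Col (9.71-fold, log2 difference 3.28, SE 0.69, adjusted p = 0.00931). The arrays were far apart in both groups but did not overlap. Its call was lost with a pseudocount of 1, with run as a block and in the 8 BTH arrays alone (adjusted p up to 0.0823).

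The smallest adjusted p was that of 260116_at, at 1700.6, 822.4, 2191.6 and 1047.4 in mil4 against 282.4, 524.2, 259.0 and 290.5 in Col (log2 difference 1.99, SE 0.32, adjusted p = 0.00125). The member called in every fit was 250286_at, at 2015.4, 987.2, 2932.6 and 1345.2 against 310.3, 351.9, 248.0 and 286.7 (5.40-fold, 2.43, SE 0.41, adjusted p = 0.00151). The 15 members that passed differed by 1.72-fold to 9.71-fold. Of the other members that passed, the unnamed 245038_at, 254385_s_at and 259550_at and the doubly named 265670_s_at lost the call in at least 1 fit without 1 array, with adjusted p up to 0.285, 0.152, 0.152 and 0.105 over all fits run. The farthest below 0 was 245757_at, at 685.4, 1344.3, 1446.4 and 1028.4 in mil4 with BTH against 1632.8, 4003.1, 2655.6 and 1697.0 in Col (-1.09, SE 0.41, adjusted p = 0.181), the 1 member with all mil4 arrays below all Col arrays. Probe set 262832_s_at, which can bind several transcripts, was at 20673.3 to 25133.7 in Col and 13141.9 to 24312.3 in mil4 (-0.25, adjusted p = 0.75).

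Most members also had higher means with BTH than with water. The choice of members on the water arrays pushes this difference up in Col and down in mil4. The mean was higher with BTH than with water in Col for 40 members, with a median log2 difference of 1.88 and a range of -0.70 to 5.48, against a median of 0.01 over all probe sets. In mil4 it was higher for 32 members, with a median of 1.87, against 0.05 over all probe sets. In Col, 28 members had BTH arrays above the water arrays without overlap (9.28% of all probe sets) and 1 below them (8.63% of all). In mil4 26 lay above (11.6% of all) and 3 below (8.6% of all), counts from which nothing is read because the rule used the water arrays. At least 1 log2 unit was reached in both genotypes by 27 members, 12 of which passed in mil4 against Col after BTH, and in neither by 10, of which 1 passed (245038_at, log2 fold change 0.78). For 29 members Col with BTH had a higher mean than mil4 with water, and for 14 a lower one.

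Among the 10 members less than 1 log2 unit higher with BTH in both genotypes was 265530_at, unnamed here, at 5682.4, 5858.3, 6172.0 and 5792.8 in mil4 with water and 3356.5, 2829.4, 3183.9 and 2613.0 in mil4 with BTH. All its mil4 BTH arrays lay below its mil4 water arrays (log2 difference -0.97). It was at 2082.8, 2554.3, 5031.9 and 1607.5 in Col with water and 1917.9, 2055.7, 1704.1 and 1690.6 in Col with BTH. The mil4 water arrays agreed closely while 1 Col water array, replicate 3, came near them. Members 261037_at and 249765_at likewise had Col BTH means below their Col water means (-0.70 and -0.10).

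Genes of the salicylic acid pathway with a named probe set were few, and none of them belonged to the named members. The 29 unnamed members could not be matched to the gene lists and may include listed genes. A listed gene is called measured here when a probe set carries its name in the annotation. Of the 22746 probe sets 8730 carry no name, so a gene not counted as measured may still be on the array. Of 25 genes on a list of salicylic acid synthesis and signalling, 1 was measured, SAG101, whose product works with the immune regulator EDS1, at a mil4 minus Col difference after BTH of 0.28 (adjusted p = 0.659). Of 25 response genes 3 were measured and 0 passed in limma: WRKY53 was at -0.07, the salicylic acid glycosyltransferase gene UGT74F1 at -0.74 and UGT76B1, whose product glycosylates isoleucic acid, at 1.15 (adjusted p = 0.94, 0.146 and 0.19). UGT74F1 and UGT76B1 had means of 4.48 to 6.43 in the BTH groups, close to the floor set by the pseudocount.

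Jasmonate and ethylene genes had 4 measured of 19, of which 3 passed as higher in mil4 after BTH, with a median of 2.73 against 0.03 over all probe sets. They were the member OSM34, the thionin gene THI2.1 (2.98-fold, log2 difference 1.57, SE 0.33, adjusted p = 0.00819) and the defensin gene PDF1.2 (9.22-fold, 3.20, SE 0.84, adjusted p = 0.0366). PDF1.2B was at 3.04 (adjusted p = 0.0902). PDF1.2 had means of 9.35 in Col with water, 6.66 in Col with BTH, 9.87 in mil4 with water and 9.86 in mil4 with BTH, so that Col with BTH was the low group, whereas OSM34 had 6.26, 7.10, 7.51 and 9.51 and mil4 with BTH was the high one. With water the PDF1.2 mean was 10.54 in sid2 and 10.31 in mil4 sid2. The summed intensity of the 4 genes varied widely between arrays, from 751.9 to 7478.3 in mil4 with BTH and from 684.8 to 5060.2 in Col with water. In Col with BTH it was 233.4 to 463.2.

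In limma 0 genes passed, in either direction, among 2 measured genes of 28 on the list of surface receptors and kinases (EFR and BIK1, median -0.09), 2 of 18 of the secretory pathway (ERDJ3B and CRT1B, 0.14), 6 autophagy genes of 16 (0.00) and the 3 leaf genes (-0.17). None of the 22 intracellular receptor genes, 26 cysteine-rich kinase genes, 18 tryptophan and camalexin genes or 21 genes of cell death and oxidative stress had a usable name on the arrays.

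Markers of other cell types were sparse. The summed intensity of 3 guard cell genes of 10 (FAMA, SPCH and MUTE) was 227.0 to 365.8 in Col with BTH and 335.6 to 484.1 in mil4 with BTH. TRY, the 1 measured trichome gene of 8, was at 28.5 to 73.4 and 11.1 to 34.6. SWEET11, a sugar transporter gene of leaf phloem and the 1 measured vascular gene of 11, was at 2781.2 to 3374.1 in Col and 3564.8 to 4590.1 in mil4 with BTH, and with water at 1392.9 to 2163.7 in Col and 3043.6 to 3702.2 in mil4. It was higher in mil4 than in Col with both treatments, as most members were. In sid2 with water it was at 2456.3 to 3146.0 and in mil4 sid2 at 2770.0 to 4119.8, both above Col with water. In these groups SWEET11 thus stayed high, where the members were chosen to be lower than in mil4. Its part in the results was not tested. None of these markers passed in mil4 against Col after BTH, and the floral, root and dividing cell lists (8, 9 and 10 genes) had no measured gene. In whole rosettes a change in the share of a cell type and a change of RNA per cell cannot be told apart.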

How the data were processed

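The authors deposited probe-set intensities on a linear scale for 24 arrays. The 2% trimmed mean of every array lies at 500.0 to 500.1 in the values. The sources used here name no software, background correction or detection call. Hybridization day (4), run (8, starts within 5 minutes joined) and fluidics module came from the file headers. The 64 Affymetrix control probe sets of 22810 were left out. Values were tested as log2(intensity + 16) with limma 3.58.1 in R 4.3.3 (1 mean per group over all 24 arrays, eBayes, 2-sided, Benjamini-Hochberg over 22746 probe sets, threshold 0.05), and the code was tested on simulated data. Fold changes on that scale understate changes of dim probe sets, and precision is limited by 4 arrays per group. Names came from the platform annotation and RefSeq (TAIR10.1). A list symbol shared by several loci or by an organelle gene named none, and for several probe sets the brightest was used. All 13 members with 1 name are named. The 17 lists, with 294 entries, cover salicylic acid synthesis and response, receptors and kinases, cysteine-rich kinases, intracellular receptors, secretion, tryptophan and camalexin, jasmonate and ethylene, cell death, autophagy, photosynthesis and markers of 6 other cell types. Members and lists were chosen with earlier results of these data known. The 395 and 12589 probe sets used for comparison, the random run block and unnamed members named by ID were chosen after seeing the values. A planned motif count was not made, since no promoter sequences were used here. Summaries were made in Python 3.11.15 (pandas 2.3.3, numpy 2.4.6) and plots in matplotlib 3.10.9.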

Additional observations from a re-analysis of the deposited data

Results flagged for a closer look

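In groups of 4 arrays, an array was set apart when its distance to the nearest other array exceeded Dixon's critical share of the group's range. Of 84 groups, 13 named members and the median over all members in each of 6 groups, 5 had such an array, and chance gives about 1 in 20. On the log2 scale CHI was at 7.63 on Col water replicate 4 against 8.93 to 9.02 on the other arrays. AT1G26390 was at 7.26 on Col water replicate 1 against 6.09 to 6.19. CCOAMT was at 4.15 on sid2 replicate 2 against 6.61 to 6.87, and at 6.67 on mil4 sid2 replicate 4 against 6.95 to 7.0. AT2G47440 was at 10.82 on sid2 replicate 1 against 10.26 to 10.32. All 5 lie in water groups that the rule used, and 0 in the BTH groups.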

How the results depend on the processing

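The number of members, 43, was 29 to 53 under other pseudocounts, scalings and brightness limits and 30 to 55 with 1 water array left out. The 15 members higher in mil4 after BTH became 8 with a pseudocount of 1, 8 in the BTH arrays alone, 1 with run as a block and 7 to 15 with 1 BTH array left out, and 0 were lower in every fit. Of the 15, 7 kept their call in all 8 fits without 1 array and 1 in all 20 other fits. The random run block, added after seeing the data, gave 15. Over all probe sets 748 passed, against 201 in the BTH arrays alone, 151 with run as a block, 1196 with array weights and 431 to 878 with 1 array left out. With a pseudocount of 1 the number was 645, and with the random run block 755. The replicate block gave 10 members and 688 probe sets, and ended the calls of OSM34 (adjusted p = 0.0611), CCOAMT (0.058) and AT2G44240 (0.0577). Replicate numbers have no stated meaning, and same-numbered mil4 and Col BTH arrays had correlations of deviations of 0.04, 0.17, 0.07 and 0.0, so it was not used as a pairing. The median of 0.69 after BTH was 0.64 to 0.81 with 1 array left out, 1.14 with run as a block, 1.07 within day 1 and 1.19 within run 2. The median of BTH in Col, 1.88, was 1.5 with a pseudocount of 64. AT4G32800, at -0.15, was -0.36 to 0.08 with 1 array left out and above 0 without Col BTH replicate 2. The cause of these differences was not tested. Dim members, such as AT2G44240 in water groups, are limited by background.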

Other observations

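After the values had been seen, the 4 mil4 arrays of each treatment were set against the fluidics module on which they were processed. In mil4 with water, replicates 2 and 4 (module 3) both lay above replicates 1 and 3 (module 1) for 27 of the 43 members, a pattern of 17.6% of all probe sets, and the reverse held for 0 members. These 4 arrays served in the choice of the members, which favours probe sets high on some of them, so nothing is read from this count. The median over the members was 9.00 to 9.16 on module 3 and 8.19 to 8.35 on module 1. In mil4 with BTH, replicates 1 and 3 (module 2) lay above replicates 2 and 4 (module 4) for 29 members, a pattern of 18.9% of all probe sets, and the reverse held for 6. The medians there were 10.70 to 10.82 and 10.04 to 10.07. With module as a block 13 members passed as higher in mil4 than in Col after BTH, and over all probe sets 778 passed in either direction. Whether the module has a part in these differences was not tested.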
